A study of Homo sapiens with 4 samples.

Results

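The RNAs described here came from 9 genes of proximal T cell receptor (TCR) signaling: CD3D, CD3E, CD3G and CD247 of the receptor complex, the kinases LCK, FYN and ZAP70, and the adaptors LAT and LCP2. They were taken from a list of 18993 peaks of a PRMT5 RNA immunoprecipitation (RIP) sequencing experiment, in which 8478 genes had a peak. A peak was counted for a gene when the gene identifier in the list carried its symbol, either in the study's supplement or by lying on the same strand of that gene alone. The rule did not use the measured values. All 9 genes had a peak, and together they had 29.

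Jurkat, an established human leukemic T cell line, was the only cell type, and every library came from cells treated with PHA (phytohemagglutinin, a lectin that activates T cells) for 48 hours. The cells were crosslinked with UV, for which the sample labels give 264 nm and 400 mJ, and RNA bound by PRMT5 was recovered by FLAG immunoprecipitation. The study's methods give another wavelength. For RIP they list antibodies to PRMT5 and to FLAG among others, without naming the one used for sequencing. They also describe no tagged PRMT5 for the sequenced cells. The groups were 2 PRMT5 RIP libraries and 2 libraries of input RNA, the RNA of the lysate before immunoprecipitation. Both groups shared the stimulation and the crosslinking, and the 4 libraries include no unstimulated cells and no control immunoprecipitation. Background recovery therefore cannot be told apart from binding to PRMT5.

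The list gave 1 pooled value for each group at each peak, in RPM (reads scaled to library size) rounded to 0.01. The spread between libraries and the depth of each library are therefore unknown here, and no difference below has a test or an error. A ratio is RPM in PRMT5 RIP over RPM in input, and a log2 ratio was taken after 0.01 was added to both. Since the cells were measured in bulk, fewer cells with an RNA and less of it per cell cannot be told apart.

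The TCR has no enzymatic activity of its own. When it binds antigen, LCK and FYN phosphorylate the tails of the CD3 chains and of CD247 (CD3 zeta), ZAP70 docks on those tails and is activated, and it phosphorylates the adaptors LAT and LCP2 (SLP-76), on which the phospholipase PLCG1 and exchange factors assemble. In Jurkat cells, which carry an alpha beta receptor, this cascade is a standard model of T cell activation. PRMT5 is an arginine methyltransferase that works in a complex with WDR77, and the study asked which RNAs PRMT5 contacts in T cells.

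In a list of this kind, each peak is given with the place where it begins, an edge that the peak caller set. The sequences below show that place for the peak nearest to the 5′ end in the 7 of 9 genes with a RefSeq start window (GRCh38.p14, 250 bases before to 50 bases after an annotated start). Each line has 30 bases, 5′ to 3′ on the strand of the gene, and the capitals mark bases inside the peak. The 2 FYN lines are shown because the first peaks of FYN had the highest ratios of the 9 genes, and the lower line lies at a later annotated start, where the first of these peaks ends.
CD3D, chr11:118342690-118342719, minus strand: tcccccactctcctcTTTCCGGTACCTGTG
CD247, chr1:167518541-167518570, minus strand: ggtagctgcagaataAAACCAGCAGAGACT
LCK, chr1:32251241-32251270, plus strand: gtcagggtgggacgtGGGCGCGGGGAGACA
ZAP70, chr2:97713561-97713590, plus strand: tccaggaaataggttAGTTTCAGACAAGCC
LAT, chr16:28985059-28985088, plus strand: cctgccgcaggcgggCGGGAGGGCGGGCAC
LCP2, chr5:170297760-170297789, minus strand: ccgttgctttctgggATCTGGCTACGCCAG
FYN, 5′ edge of the peak, chr6:111873403-111873432, minus strand: agcgagcagccgcgctggtgGCGGCGGCGC
FYN, second start and 3′ edge of the peak, chr6:111873057-111873086, minus strand: CTCGGAAGGCCCACCGGCTCCCGGgcccgc

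The first peak of CD3G and that of ZAP70 began at the annotated first base of the gene, and that of CD3D 1 nt inside it. The first peak of LCP2 began 3 nt inside its gene, that of CD3E 25 nt and that of FYN 40 nt inside. The first LCK peak began 9 nt before the annotated start and the first CD247 peak 26 nt before it. In LAT the first peak began 271 nt after the first annotated start. The peaks of the 9 genes thus began within 40 nt of the first annotated start in all genes but LAT, whose line above is drawn at a later annotated start. Some widths were multiples of 25 nt, such as 350, 50 and 150 nt in FYN, and others, such as 3630 nt in CD3D, were not. The edges may therefore be steps of the peak caller, and whether it set them by the annotation was not tested.

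Of the 29 peaks, 4 had at least 2 times as much RPM in PRMT5 RIP as in input, 20 lay between 1 and 2 times input, and 5 were lower in PRMT5 RIP than in input. The share at 2 times input was 13.8%, against 56.6% of all peaks, and the share below input was 17.2%, against 3.84% of all peaks. The median log2 ratio over the 29 peaks was 0.53, with quartiles of 0.24 and 0.86. Over all peaks the median log2 ratio was 1.10 and the quartiles were 0.62 and 1.67. All 9 RNAs of the TCR machinery thus had peaks, at ratios mostly below the median of the list.

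**Figure D1:**
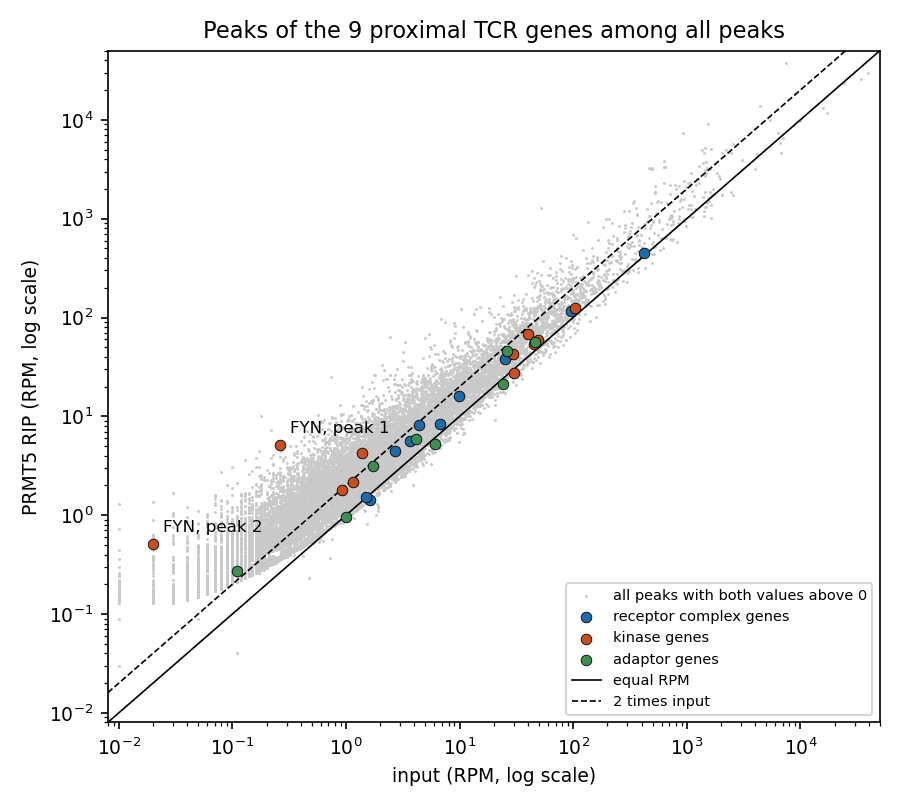
RPM in PRMT5 RIP (vertical, log scale) against RPM in input (horizontal, log scale) for every peak with both values above 0 (grey) and for the 29 peaks of the 9 genes, coloured by role; the solid line marks equal RPM and the dashed line 2 times input. Most coloured points lie between the lines, 5 lie below the solid line, and the 2 FYN peaks nearest to the 5′ end, at 5.10 against 0.26 RPM and 0.51 against 0.02 RPM, lie far above the dashed line.

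The level of the RNA moved with this difference. The median input level was 6.12 RPM per peak in the 9 genes and 0.83 RPM in the whole list, and the median peak width was 843 nt and 275 nt. Where input had at least 10 RPM, 29.7% of all peaks reached 2 times input and 11.8% were below input. In the 9 genes 12 peaks had that level, of which 0 reached 2 times input and 2 were below input, with a median log2 ratio of 0.27 against 0.65 for all such peaks. Among peaks under 1 RPM in input, 3 of 4 peaks of the 9 genes and 71.2% of all peaks reached 2 times input. In the list as a whole, too, the ratio was thus lower at high input levels. In the class of at least 10 RPM the 9 genes had the lower median ratio but also the higher level. Their median input there was 42.9 RPM, against 27.8 RPM for all such peaks, so the class did not match the levels. Input is also the denominator of the ratio, so level and ratio are not independent, and the part of the level in the difference was not tested beyond these classes. The list also holds called peaks only. Among all peaks under 1 RPM in input, 0.356% were below input, and how the calling of peaks shaped the ratios at low input was not tested.

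Summed over all their peaks, the 9 genes had 1180 RPM in PRMT5 RIP against 980.3 in input, a ratio of 1.20. That was 0.156% of the RPM summed over the whole list in PRMT5 RIP and 0.2003% in input. By gene, 1 of 9 genes, FYN, reached 2 times input in its summed RPM, against 62.7% of all genes. The median log2 ratio of summed RPM was 0.40 for the 9 genes and 1.20 for all genes.

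In the receptor complex lay both the most abundant RNA of the 9 genes and the lowest ratio, those of CD3D. CD3D, CD3E and CD3G encode the delta, epsilon and gamma chains, which pair with each other and carry the TCR to the surface, and lie side by side on chromosome 11. CD3D (ENSG00000167286.11) had a single peak, chr11:118339075-118342704 on the minus strand, which covered 96.7% of the gene. Its level was 452.8 RPM in PRMT5 RIP against 417.1 in input, a ratio of 1.09, the lowest among the 9 genes. Only 6.23% of all peaks had a lower ratio, although by its RPM in PRMT5 RIP this peak ranked 212 of 18993.

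CD3E (ENSG00000198851.10) had a wide peak, chr11:118304755-118315687 on the plus strand, with 115.7 RPM in PRMT5 RIP against 96.1 in input. A peak of 25 nt near its 3′ end, chr11:118315938-118315962, had 1.44 RPM in PRMT5 RIP against 1.63 in input, so that it was 11.7% lower in PRMT5 RIP. In CD3E both peaks were thus close to their input, one a little above it and the other a little below.

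CD3G (ENSG00000160654.11) had a single peak, chr11:118344344-118353196 on the plus strand, with 37.7 RPM in PRMT5 RIP against 25.1 in input, a ratio of 1.5. CD3D and CD3G run away from each other with 1639 nt between their peaks, while the CD3E and CD3D peaks are 23112 nt apart. Along this cluster of neighbouring genes the ratio of summed RPM was 1.20 for CD3E, 1.09 for CD3D and 1.5 for CD3G. The most abundant of these RNAs had the lowest ratio and the least abundant the highest.

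CD247 (ENSG00000198821.12) encodes the zeta chain, whose long tail carries most of the phosphorylation motifs of the receptor. On the minus strand of chromosome 1 it had 6 peaks, more than any other of the 9 genes, and none reached 2 times input or lay below input. The first, chr1:167503407-167518555, had 5.60 RPM in PRMT5 RIP against 3.63 in input, a ratio of 1.54. No peak covered the long middle of the gene, and the other 5 lay towards its 3′ end.

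The highest CD247 ratio, 1.86, was that of chr1:167438560-167439402, with 8.12 RPM in PRMT5 RIP against 4.37 in input. The lowest, 1.02, was that of a peak of 50 nt, chr1:167431250-167431299, with 1.52 and 1.49 RPM. The largest level, 16.2 RPM in PRMT5 RIP against 9.87 in input, lay in chr1:167431625-167437784, a ratio of 1.64. The ratio of CD247 was thus similar at both ends, with 1.54 in the first peak and 1.66 in the last, chr1:167431000-167431224, which had 4.50 and 2.71 RPM. The remaining peak, chr1:167439653-167444151, had a ratio of 1.24.

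**Figure D2:**
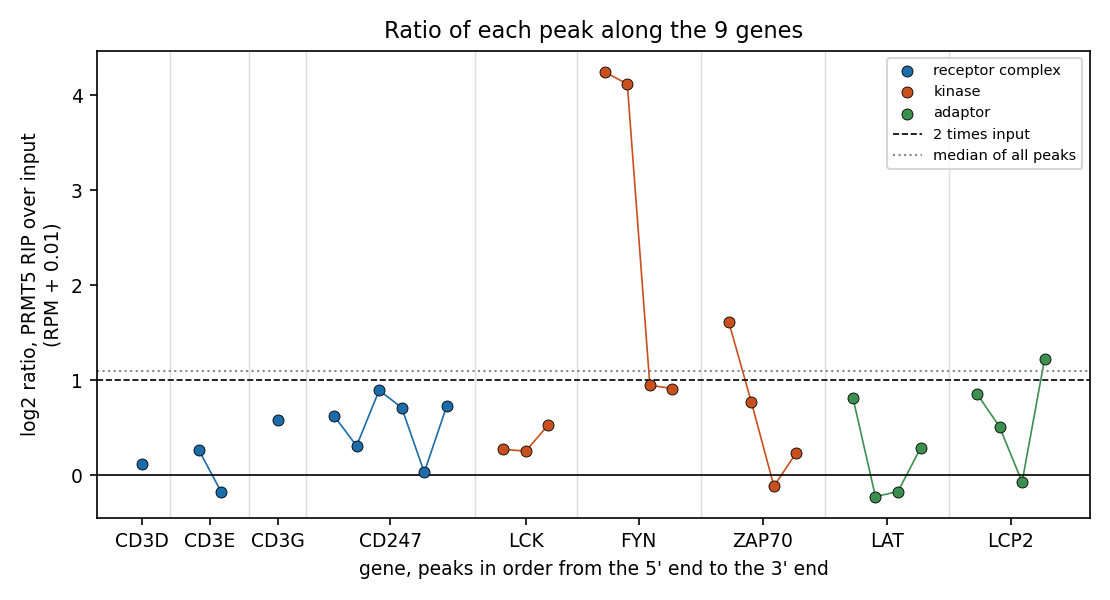
Log2 ratio of PRMT5 RIP over input (vertical, after adding 0.01 to both RPM values) for each of the 29 peaks, ordered within each gene from the 5′ end to the 3′ end (horizontal) and coloured by role; lines join peaks of 1 gene, the solid line marks equal RPM, the dashed line 2 times input and the dotted line the median of all peaks, 1.10. The first 2 FYN peaks, at 4.24 and 4.12, the first ZAP70 peak, at 1.61, and the last LCP2 peak, at 1.22, lie above the dotted line, and no other peak does.

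Among the kinases, LCK stayed near its input along the whole gene. LCK (ENSG00000182866.18) encodes the SRC family kinase that is bound to the CD4 and CD8 coreceptors and starts the cascade. Its first peak, chr1:32251256-32274840 on the plus strand, had 59.3 RPM in PRMT5 RIP against 49.2 in input. The second, chr1:32274991-32276682, had 124.2 and 104.2 RPM, and the third, chr1:32279945-32285706, had 42.8 and 29.7 RPM. The ratios were 1.21, 1.19 and 1.44, the narrowest span of any of the genes with more than 2 peaks.

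FYN had the highest ratios of the 9 genes. FYN (ENSG00000010810.17) encodes the other SRC family kinase of the cascade. Its first peak, chr6:111873063-111873412 (minus strand), 350 nt wide, had 5.10 RPM in PRMT5 RIP against 0.26 in input, a ratio of 19.6. By log2 ratio it ranked 40 of 18993 peaks, and 5 of the 14683 peaks with at least 0.2 RPM in input. That limit was used for this rank only and lies just below the 0.26 RPM of the peak itself. Rounding of the deposited values to 0.01 places the ratio between 19.2 and 20.0.

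The second FYN peak, chr6:111872988-111873037, lay 25 nt further on and had 0.51 RPM in PRMT5 RIP against 0.02 in input. Its ratio was 25.5, which rounding places between 20.2 and 34.3. That is above the bounds of the first peak, while after 0.01 was added its log2 ratio, 4.12, was below the 4.24 of the first. The peaks that followed were 152938 nt away. There, chr6:111719900-111720049 had 1.78 and 0.92 RPM, a ratio of 1.93, and chr6:111707938-111714438 had 2.19 and 1.16 RPM, a ratio of 1.89.

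High ratios in FYN were therefore those of the stretch next to its 5′ end. Without the first 2 peaks the summed level of FYN was 3.97 RPM in PRMT5 RIP against 2.08 in input, a ratio of 1.91, against 4.06 with them. In the sequence shown above, the first FYN peak opens in GC-rich bases, and its last 9 bases begin at a second annotated start. The 300-base window at that start held 82.3% G and C, and 98.9% of 35116 RefSeq windows held less. The windows of the CD3D, CD247, LCP2, ZAP70 and LCK lines and of the 5′ edge of FYN held between 49.3% and 69.0%, and that of LAT held 72.3%, beside a median of 58.7% over all windows. What GC content contributes to the RPM values was not tested.

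ZAP70 (ENSG00000115085.15) encodes the kinase that docks on the phosphorylated receptor. It also had its highest ratio at the first base of the gene. There, chr2:97713576-97713816 (plus strand) had 4.26 RPM in PRMT5 RIP against 1.39 in input, a ratio of 3.06. A wide peak 3′ of it, chr2:97713892-97733148, had 68.7 and 40.4 RPM, a ratio of 1.70. The second peak thus had a far higher level than the first in both columns and a lower ratio.

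Further 3′, chr2:97734593-97735404 had 27.6 RPM in PRMT5 RIP against 29.9 in input, 7.79% lower in PRMT5 RIP. The last ZAP70 peak, chr2:97735455-97739575, had 53.7 and 45.5 RPM, a ratio of 1.18. The first peak held a small part of the RNA, and the summed ratio of ZAP70 was 1.32 with it and 1.30 without it.

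Adaptor RNAs held 3 of the 5 peaks that were lower in PRMT5 RIP than in input. LAT (ENSG00000213658.13) encodes the membrane scaffold that ZAP70 phosphorylates. Its peaks also list a second identifier, ENSG00000261067.7, so that their reads cannot be given to LAT alone. The first, chr16:28985074-28985743 on the plus strand, had 45.7 RPM in PRMT5 RIP against 25.9 in input, a ratio of 1.76. The peaks that followed, chr16:28985844-28985893 and chr16:28986119-28986576, had 5.23 against 6.12 RPM and 21.2 against 23.9 RPM, 14.5% and 11.3% lower in PRMT5 RIP. In LAT a first peak above input was thus followed directly by peaks below it.

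The last LAT peak, chr16:28986652-28990489, had 55.9 RPM in PRMT5 RIP against 45.9 in input, a ratio of 1.22. It was the only 1 of the 29 peaks that overlapped peaks on the opposite strand, those of ENSG00000261552.1. The larger of them, chr16:28989215-28990449, had 5.13 and 4.05 RPM, equal to 9.17% and 8.82% of the values of the LAT peak. The opposite strand was thus a minor part of the signal at LAT, with a similar ratio of 1.27.

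LCP2 (ENSG00000043462.13), the gene of SLP-76, had the lowest level per length of peak summed over its peaks. That value was set by its widest peak, of 22484 nt, with 0.185 RPM per kb in input, while its other peaks had between 4.40 and 40.4. Its first peak, chr5:170297550-170297774 (minus strand), had 3.12 RPM in PRMT5 RIP against 1.72 in input, a ratio of 1.81. A wide peak, chr5:170270880-170293363, had 5.91 and 4.15 RPM, a ratio of 1.42. Beyond it lay a pair of peaks of 25 nt each. One, chr5:170270755-170270779, had 0.96 and 1.01 RPM, 4.95% lower in PRMT5 RIP. The other, chr5:170268394-170268418, had 0.27 and 0.11 RPM, a ratio of 2.45 that rounding places between 2.30 and 2.62. The LCP2 peak past 2 times input was thus the one with the least RNA.

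**Figure D3:**
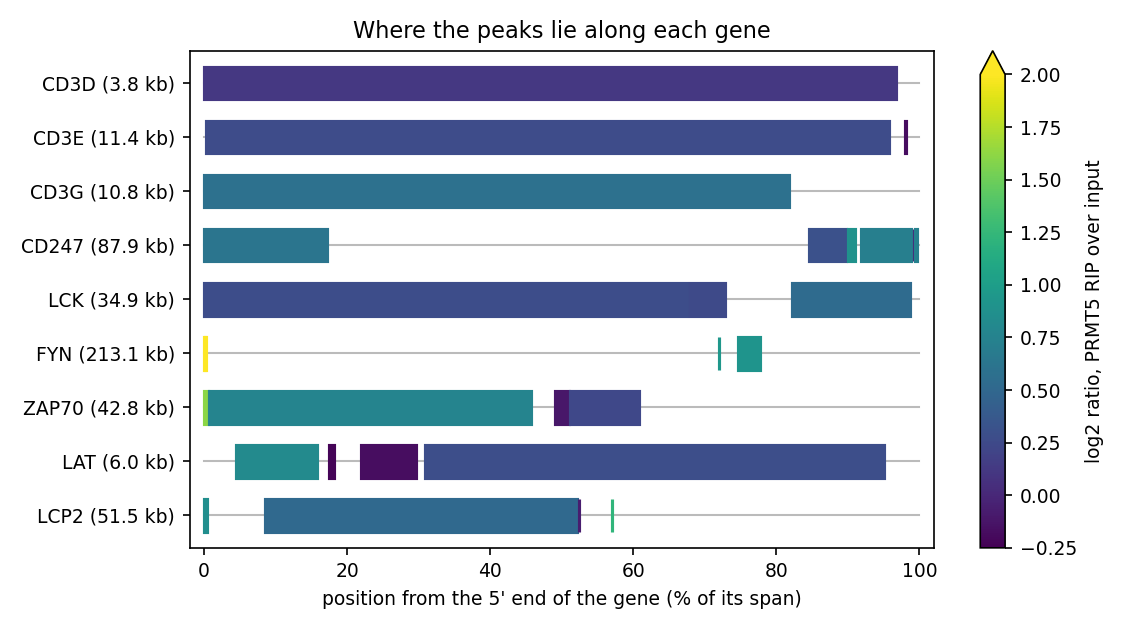
Position of the 29 peaks along each gene (horizontal, % of the gene's span from its 5′ end; the span in kb beside each symbol), with the log2 ratio of PRMT5 RIP over input as colour; the narrowest peaks are drawn wider than scale so that they can be seen, and values above 2 share the brightest colour. FYN has 3.31% of its span in peaks and CD3D 96.7%, and the bright FYN mark sits at the 5′ end.

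Per length of peak, the levels differed far more than the ratios. The input level was 115 RPM per kb of peak for CD3D, 20.3 for LAT, 8.92 for CD3E, 5.90 for LCK, 4.80 for ZAP70, 2.84 for CD3G, 1.07 for CD247, 0.335 for FYN and 0.307 for LCP2. All 29 peaks were given as 1 uninterrupted block, and 9 of them were wider than 5000 nt. Their spans may cross introns, which were not marked here. A value per kb may therefore be lower in a gene with long introns, whatever its level. The log2 ratio of summed RPM ran in the order FYN 2.02, CD247 0.62, CD3G 0.58, LCP2 0.55, ZAP70 0.40, LAT 0.33, LCK 0.31, CD3E 0.26 and CD3D 0.12. Without a spread between libraries it cannot be said which neighbours in this order differ. Both genes at 0.26 or below belong to the CD3 cluster on chromosome 11, and the genes with the least input RPM per kb of peak, FYN, CD247 and LCP2, are among the first 4.

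Along the genes the higher ratio lay at the 5′ end in some genes and at the 3′ end in others. Of the 7 genes with at least 2 peaks, 4 had a higher log2 ratio in the peak nearest to the 5′ end than in that nearest to the 3′ end, against 69.5% of all such genes. The difference in log2 ratio, 5′ minus 3′, was 3.33 in FYN, 1.37 in ZAP70, 0.53 in LAT and 0.44 in CD3E. In CD247 it was -0.11, in LCK -0.26 and in LCP2 -0.37, where the last peak had only 0.27 RPM in PRMT5 RIP and 0.11 in input. ZAP70 and FYN, both kinases, thus stood above the adaptors and the receptor chains in this difference, and LCK did not.

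Other genes of the proximal pathway were taken from a list of 62 genes by role. Of these, 39 had a peak that could be named, 20 had no peak touching them, and 3 (LIME1, SLA and ITCH) were touched by peaks whose identifiers could not be given a single gene. The 39 genes had 109 peaks, of which 52, or 47.7%, reached 2 times input and 2 were below input, with a median log2 ratio of 0.93. A gene without a peak is not shown to be absent. Read against 56.6% of all peaks, the wider pathway lay closer to the whole list than the 9 genes did. The groups below were not matched to the 9 genes by input level.

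Antigen receptor chains and coreceptors had the lowest median of these groups. Of 12 such genes, 7 had a named peak, with a median log2 ratio of 0.35 over 19 peaks, of which 7 reached 2 times input and 2 were below input. TRBC1 and TRBC2, the constant regions of the receptor beta chain, had 641.8 RPM in PRMT5 RIP against 475.4 RPM in input and 446.9 against 350.6 RPM, ratios of 1.35 and 1.27. They are near-identical copies, so reads may be split between them. TRAC, the constant region of the alpha chain, had 33.8 and 32.4 RPM, a ratio of 1.04. TRAC, TRBC1, TRBC2 and the 3 CD3 genes were thus all between 1.04 and 1.5 times input in their summed RPM.

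CD2, an adhesion receptor, had the lowest ratio of that group, 1.03, with 3.58 RPM in PRMT5 RIP against 3.46 in input. CD5, a receptor that dampens TCR signals, had the highest, 2.36, with 1.63 and 0.69 RPM, and the related CD6 had 2.17, with 10.26 and 4.73 RPM. CD4 and CD8A, whose products carry LCK, had no peak, nor had CD8B. CD2 thus had a ratio near 1 at a low level, but it was named for having the lowest ratio of its group.

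Regulators of LCK and FYN had higher ratios than LCK itself. Of 11 genes, 6 had a named peak, and 11 of their 25 peaks reached 2 times input, with a median log2 ratio of 0.92. PTPN6, a phosphatase (SHP-1) that restrains the cascade, had the most RNA, 53.7 RPM in PRMT5 RIP against 35.2 in input, and the lowest ratio of the group, 1.53. PTPN11, the related phosphatase SHP-2, had the highest, 4.04, from 6.54 and 1.62 RPM in 1 peak. FYN therefore had a summed ratio close to that of PTPN11, and LCK lay below all 6 genes of this group. The input of LCK, 183.1 RPM, was also above that of all 6, of which PTPN6 had the most.

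Downstream of LAT, PLCG1, which cleaves a membrane lipid into second messengers, was the only 1 of the 4 Tec kinase and phospholipase genes with a peak. Its 3 peaks all reached 2 times input, and the summed level was 6.25 RPM in PRMT5 RIP against 1.47 in input, a ratio of 4.25.

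Other adaptors and exchange factors had higher ratios as a group than LAT and LCP2. Of 23 genes, 17 had a named peak, and 21 of 41 peaks reached 2 times input, with a median log2 ratio of 0.95 against 0.40 over the 8 peaks of LAT and LCP2. Levels differed as well: LAT had 101.9 RPM in input, more than any of the 17 genes, while LCP2 had 6.99. SIT1, a transmembrane adaptor, had the most RNA, with 112.8 RPM in PRMT5 RIP against 64.7 in input, a ratio of 1.74. VAV3, an exchange factor for small GTPases, had the highest ratio, 7.26, from 4.94 and 0.68 RPM. FYB1, an adaptor that binds SLP-76, had the lowest ratio of those with an input of at least 0.5 RPM, 1.37, from 7.77 and 5.68 RPM, somewhat below the 1.47 of LCP2 itself.

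Inhibitors of the cascade had 10 of 21 peaks at 2 times input, in 8 of 12 genes, with a median log2 ratio of 0.93. DOK2, an inhibitory adaptor, had the most RNA, 23.6 RPM in PRMT5 RIP against 8.99 in input, a ratio of 2.63. DGKZ, a kinase that removes the second messenger diacylglycerol, had the highest ratio of those with an input of at least 0.5 RPM, 2.69, from 14.02 and 5.21 RPM. SLA2, an adaptor that lowers receptor levels, had the lowest under the same limit, 1.69, from 10.4 and 6.12 RPM. DOK2, DGKZ and SLA2 each had a higher ratio than 8 of the 9 genes, while DGKA, with 0.42 and 0.31 RPM, had a ratio of 1.35, below those of CD247, CD3G and LCP2.

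**Figure D4:**
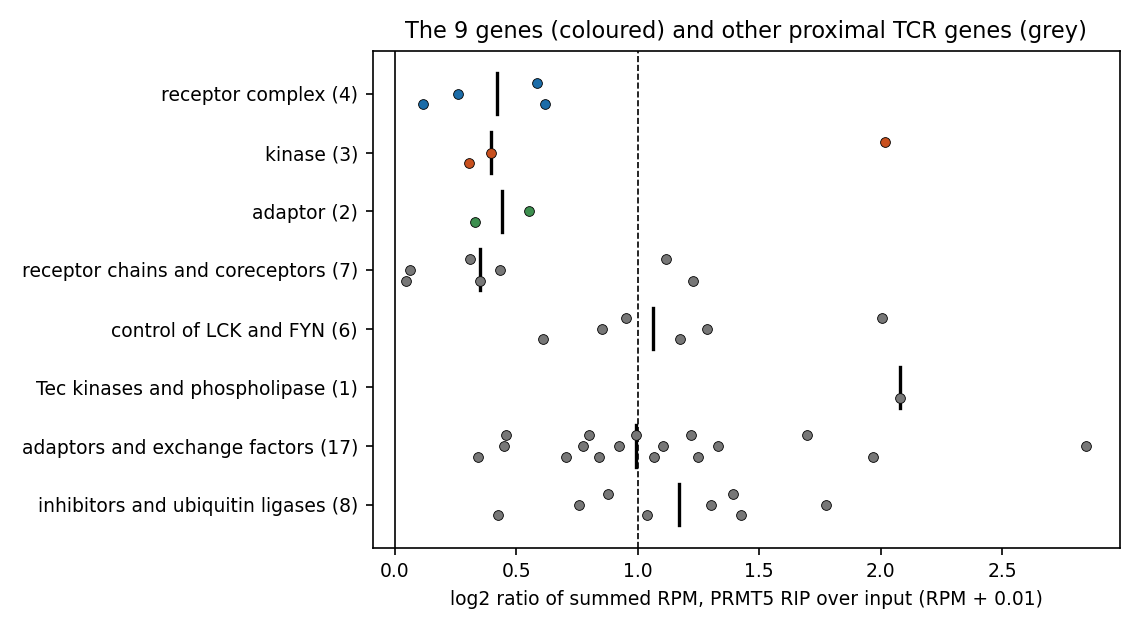
Log2 ratio of summed RPM, PRMT5 RIP over input (horizontal, after adding 0.01 to both), for each gene with a named peak, by role (rows, with the number of genes); the 9 genes are coloured, other genes of the proximal pathway are grey, short black bars are medians and the dashed line marks 2 times input. FYN, at 2.02, is the only coloured point beyond the dashed line, and of the 7 antigen receptor chains and coreceptors, with a median of 0.35, CD5 and CD6 lie beyond it, at 1.23 and 1.12.

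The RNAs of the immunoprecipitated protein and its partner were also in the list. PRMT5 had 86.2 RPM in PRMT5 RIP against 78.5 in input, a ratio of 1.10, and WDR77 had 7.92 and 4.65 RPM, a ratio of 1.70. Of 14 T lineage markers, which include 7 of the 9 genes, 13 had a peak and CD4 had none, with 1845 RPM in input in all. Of 6 B cell and 6 myeloid markers, 1 each had a peak, CD79A with 37.3 RPM and CSF1R with 29.5 RPM in input. The other 5 markers of each of these lineages, MS4A1 and CD14 among them, had no peak. By gene the T lineage input ran from 0.69 RPM in CD5 to 475.4 RPM in TRBC1. CD79A and CSF1R thus lay above several T lineage markers, such as CD2 with 3.46 RPM and CD28 with 11.73 RPM.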

How the data were processed

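PRMT5 RIP and input RNA of PHA-stimulated Jurkat cells were sequenced from 2 libraries each. The authors deposited 1 list of peaks on hg38 with 1 RPM value per group, pooled over libraries. Their processing notes name fastp and HISAT2, without versions, while the peak caller, the annotation and the scaling are not given in the sources used here. The authors' own columns (fold change, p-value, FDR, score) were not used. RPM values took every step of 0.01, so reads per library could not be recovered, and no interval or limit for a value of 0 was computed. The library kit keeps strand, but how strand was used in counting is not stated.

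Peak starts were raised by 1. Each peak was assigned to its first identifier. Of 8478 identifiers, 6482 received a symbol, from the rows used of the study's supplement or from the single RefSeq gene (GRCh38.p14) on the same strand that their peaks touched. For genes of the lists, only coding genes and constant regions were considered where that left several. Of 712 identifiers named both ways, 708 had the same name. FYN and LCP2 were named by the supplement and the other 7 genes by position. The 9 genes, the lists and the groups of peaks by input level were chosen with earlier results of these data known. Named beside the 9 genes were, per role, the gene with the most RPM in PRMT5 RIP and those with the highest and lowest ratio among genes with at least 0.5 RPM in input, with TRAC, TRBC1, TRBC2, CD4, PRMT5 and WDR77; CD6, DGKA, a few genes without peaks and the defining markers were added after their values were seen. Counting was tested on simulated data. Alternatives covered filters, the fold, the pseudocount and the handling of several identifiers. Exons and a genome were not used here. Python 3.11.15, pandas 2.3.3, numpy 2.4.6 and matplotlib 3.10.9 were used.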

Additional observations from a re-analysis of the deposited data

How the results depend on the processing

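Of 51 alternative values, 46 kept their direction and stayed within 1.5 times the value given, with log2 ratios compared as folds, and none turned in direction. The 5′ to 3′ difference of each single gene was not among these values. On the log2 scale the median over the peaks of a gene was well below the ratio of its summed RPM in CD3E, 0.04 against 0.26, and in LAT, 0.06 against 0.33. The exceptions all concerned the 4 peaks of the 9 genes at 2 times input. With at least 0.5 RPM in input 1 peak was left, with at least 1 RPM in PRMT5 RIP 2, and a fold of 1.5 in place of 2 gave 14. In alternatives chosen after the data were seen, at least 10 RPM in input left 0 and leaving out FYN left 2. The count thus rests on peaks with little input RNA. The median log2 ratio of the 29 peaks lay between 0.27 and 0.56 under all alternatives run, and all 27 alternative values of single genes kept their sign. For most of these that was fixed in advance, also among the 46 values above. A pseudocount added to both sums cannot change the sign. In CD3D and CD3G, with a single peak each, the median over peaks equals the value given. The count of genes with the higher ratio at the 5′ end was 3 of 5 genes without peaks wider than 5000 nt, and 5 of 7 with a pseudocount of 0.1 or 1 or with the difference of RPM in place of the ratio. The direction within a single gene thus depended on these choices. No paired analysis was possible because the list gives 1 pooled value per group, and for the same reason no replicate could be left out and the precision set by depth is unknown.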
